A study of Mus musculus with 9 samples.

Results

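The genes of glucose uptake and glycolytic control considered here were chosen by name, with earlier results of these data known. The rule listed 10 symbols, of which 9 had values among the 18188 genes measured: the glucose transporter genes Slc2a1 and Slc2a3, the hexokinase genes Hk1 and Hk2, the phosphofructokinase genes Pfkp and Pfkfb3, the phosphoglycerate kinase gene Pgk1 and the lactate dehydrogenase genes Ldha and Ldhb. Txnip, the remaining symbol, was not analysed here. All 9 passed the filter on low values that left 10540 genes for testing. The series compared CD8+ T cells, which destroy virus-infected and tumour cells, taken from mouse spleens of Rig1 KO (4 libraries) and WT genotype (5 libraries). Rig1 denotes the gene for RIG-I, a cytosolic sensor of viral RNA, listed in the files under its older symbol Ddx58. The labels name no age, strain, sex, treatment or purification method, and do not say which cells carry the knockout. Since they also do not tie libraries to animals, p-values reflect only the variation among these libraries, which may be technical.

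Glucose enters a T cell through facilitative transporters, is trapped by hexokinase as glucose phosphate, and is committed to glycolysis by phosphofructokinase. Lactate dehydrogenase closes the pathway by converting pyruvate to lactate, which regenerates the oxidised cofactor that glycolysis consumes. Naive CD8+ T cells are known to run this pathway slowly, and antigen stimulation raises transporters and enzymes together as the cells grow. Transcript levels measure neither sugar uptake nor enzyme activity.

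Ddx58 was at 32.8, 30.6, 35.2 and 34.5 TPM in the Rig1 KO libraries, against 63.9, 67.4, 67.1, 63.8 and 63.2 TPM in the WT libraries, so every library matched its label in direction while Rig1 KO kept 51.1% of the WT mean. TPM (reads per gene length, scaled to 1e+06 per library) are given as deposited, and the recovered depth was 15509876 to 17866952 reads per Rig1 KO library and 15496262 to 17893558 per WT library. Over all tested genes the log2 fold change had a median of 0.13 for the deposited TPM, and of 0.01 once libraries were scaled by median ratios to a common reference, so changes of that size are read under both scalings. The summed CD8 T cell markers (7 of 8 found, led by Cd8a and Lck, 7 higher as deposited) ran from 4784 to 5377 TPM in Rig1 KO and from 3445 to 3993 TPM in WT. After median ratio scaling Cd8a, Cd8b1, Cd3e and Cd5 remained higher, while Cd3d, Cd3g and Lck did not pass an adjusted p of 0.05. Marker sums of other cell types differed between genotypes too, several of them with overlapping ranges. Summed B cell markers (9 of 10 found, 7 lower) spanned 92.8 to 199 TPM in Rig1 KO and 165 to 1159 TPM in WT, and platelet markers (5 of 6 found, 5 lower) 32.0 to 40.5 TPM in Rig1 KO and 183 to 246 TPM in WT. Erythroid markers (8 of 9 found, 3 higher) spanned 183 to 326 TPM in Rig1 KO and 75.1 to 205 TPM in WT, natural killer markers (7 of 7 found, 6 higher) 444 to 496 TPM in Rig1 KO and 151 to 197 TPM in WT, and basophil markers (6 of 6 found, 6 higher) 221 to 422 TPM in Rig1 KO and 15.0 to 58.4 TPM in WT. The natural killer sum was mostly Eomes, which averaged 299 TPM in Rig1 KO and 138 TPM in WT. Klre1 came next, at 106 TPM in Rig1 KO and 16.2 TPM in WT. Summed neutrophil markers (8 of 8 found, 2 lower) spanned 84.5 to 158 TPM in Rig1 KO and 82.0 to 583 TPM in WT, and monocyte and macrophage markers (9 of 9 found, 2 higher) 1132 to 1236 TPM in Rig1 KO and 536 to 1201 TPM in WT. Dendritic cell markers (6 of 6 found, 1 higher) spanned 56.8 to 67.1 TPM in Rig1 KO and 15.7 to 65.8 TPM in WT, and CD4 T cell markers (3 of 4 found, 1 lower) 20.3 to 23.4 TPM in Rig1 KO and 19.5 to 66.0 TPM in WT. Itgax, the dendritic marker that was higher, made up most of that sum and averaged 55.5 TPM in Rig1 KO and 18.8 TPM in WT. The dendritic markers Flt3, Zbtb46, Xcr1, Siglech and Clec9a averaged lower in Rig1 KO, and none of them passed. No marker found was at 0 in every library of a group. The part of these cell types in the results below was not tested. Values given below for B cell markers do not separate B cells from genotype.

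Rig1 KO libraries held 34.2% of the Slc2a1 level of WT libraries, whereas most of the other glycolytic members differed little. With TPM as deposited, 6 of the 9 members passed an adjusted p of 0.05 (limma on log2(TPM + 1), adjusted over all 10540 genes). Slc2a1 and Ldhb fell, and Pfkp, Pgk1, Hk1 and Slc2a3 rose. Over all tested genes 45.7% passed, 33.5% higher and 12.2% lower. With 9 members, the count of calls is not read as a result about them. After median ratio scaling 3 members passed, Slc2a1 and Ldhb lower and Pfkp higher, where 45.1% of all genes did (23.7% higher, 21.4% lower). The groups did not overlap for Slc2a1, Ldhb, Pfkp, Hk1 and Pgk1, 5 of the 9 members, as for 38.1% of all tested genes. Of these 5, Pfkp, Hk1 and Pgk1 were higher (28% of all genes) and Slc2a1 and Ldhb lower (10.1% of all genes).

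**Figure D1:**
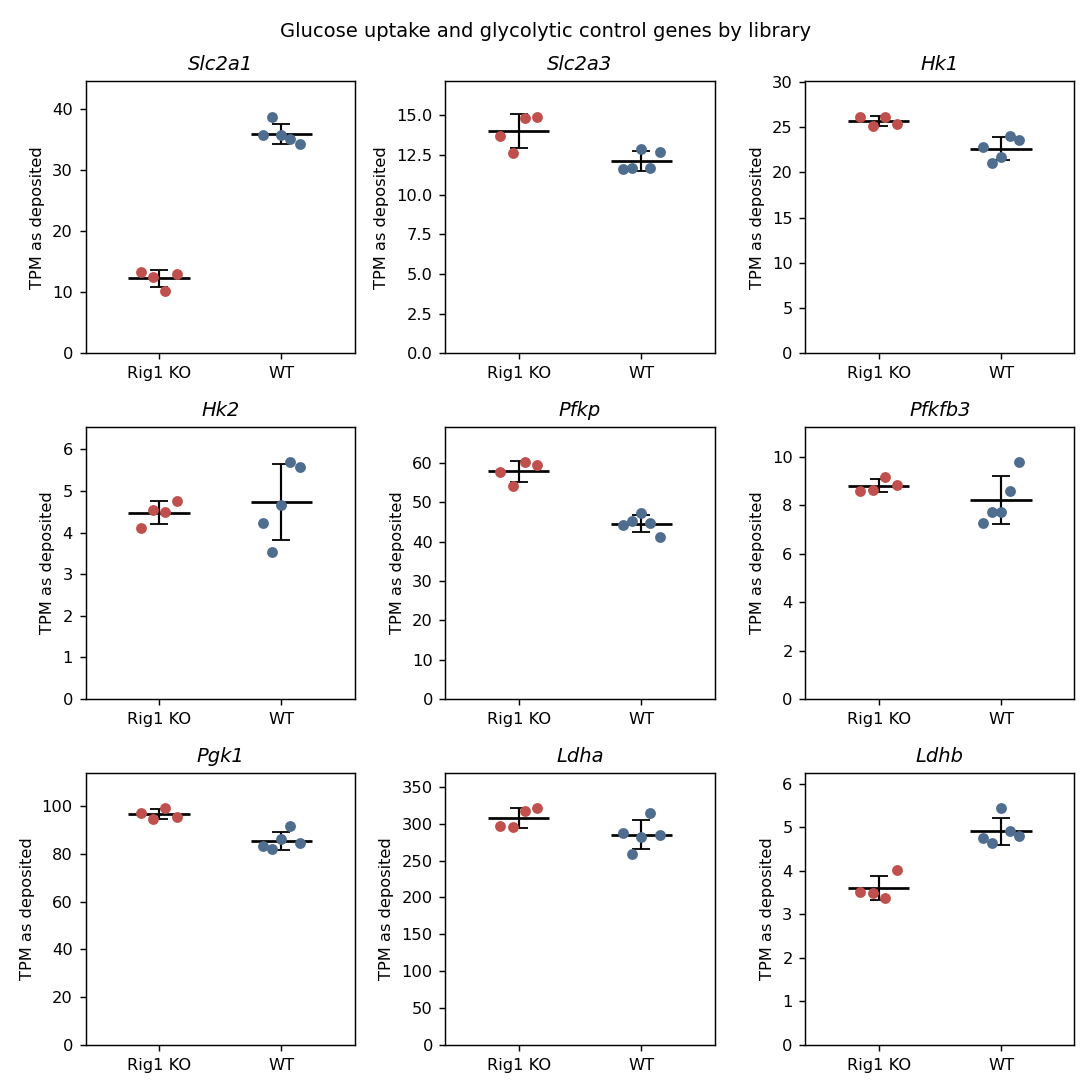
TPM as deposited (vertical axis, from 0) of each of the 9 measured genes in the 4 Rig1 KO libraries (left, red) and the 5 WT libraries (right, blue). Points are libraries, long bars group means and whiskers 1 SD. Slc2a1 lies at 10.2 to 13.3 TPM in Rig1 KO and 34.4 to 38.8 TPM in WT.

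Slc2a1 encodes GLUT1, the transporter that carries most of the added glucose after T cell activation. Its level was 13.3, 12.5, 10.2 and 13.02 TPM in the Rig1 KO libraries, against 35.7, 38.8, 35.7, 35.1 and 34.4 TPM in the WT libraries. The highest Rig1 KO library thus stood far below the lowest WT library, and within each genotype the libraries lay close together. The recovered reads behind these values were 385 to 624 per Rig1 KO library and 1406 to 1658 per WT library. The mean was 12.3 ± 1.39 TPM in Rig1 KO (SD, n = 4) and 35.9 ± 1.70 TPM in WT (SD, n = 5), 2.93-fold lower in Rig1 KO. On the log2(TPM + 1) scale Slc2a1 changed by -1.48 (SE 0.078, adjusted p = 2.65e-07), which ranked 159 from the most negative among the 10540 tested genes. In bulk libraries fewer cells of one type and less RNA per cell cannot be told apart.

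Of the summed markers of other cell types, only those of platelets separated the genotypes in the same direction as Slc2a1. Natural killer markers (444 to 496 TPM in Rig1 KO, 151 to 197 TPM in WT) separated in the opposite direction. So did basophil markers (221 to 422 TPM in Rig1 KO, 15.0 to 58.4 TPM in WT). Summed platelet markers were at 32.0 to 40.5 TPM in Rig1 KO and 183 to 246 TPM in WT, without overlap, and their part in the Slc2a1 difference was not tested. Summed B cell markers overlapped, at 92.8 to 199 TPM in Rig1 KO and 165 to 1159 TPM in WT. Adding the mean of the B cell markers to the model gave a log2 fold change of -1.63 (adjusted p = 3.09e-05). Leaving out WT 4 and WT 5, where these markers were highest, gave -1.51. WT 1, WT 2 and WT 3 still held 340, 470 and 165 TPM of them. Since 7 of the markers were themselves lower in Rig1 KO, neither value isolates the part of B cells, which was not tested.

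The promoters of the 3 members that changed under both scalings are printed here because their transcripts moved apart, Slc2a1 and Ldhb down and Pfkp up. The sequences are RefSeq's for build GRCm38.p6, an older build than that of the TPM files, and cover the 250 bases before the annotated start, 5′ to 3′ on the gene's strand. They lie at chr4:119108495-119108744 on the plus strand (Slc2a1), chr6:142507958-142508207 on the minus strand (Ldhb) and chr13:6648772-6649021 on the minus strand (Pfkp). Capitals mark every match, on either strand, of 6 motifs: the hypoxia response core ACGTG, the E-box CACGTG that contains it, the AP-1 site TGANTCA, the cAMP response element TGACGTCA, the GC box GGGCGG and the CCAAT box CCAAT.
Slc2a1: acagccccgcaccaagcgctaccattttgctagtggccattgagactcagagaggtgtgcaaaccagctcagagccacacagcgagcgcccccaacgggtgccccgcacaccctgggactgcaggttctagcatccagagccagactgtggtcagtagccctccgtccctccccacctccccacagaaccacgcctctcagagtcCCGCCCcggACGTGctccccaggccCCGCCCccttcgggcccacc
Ldhb: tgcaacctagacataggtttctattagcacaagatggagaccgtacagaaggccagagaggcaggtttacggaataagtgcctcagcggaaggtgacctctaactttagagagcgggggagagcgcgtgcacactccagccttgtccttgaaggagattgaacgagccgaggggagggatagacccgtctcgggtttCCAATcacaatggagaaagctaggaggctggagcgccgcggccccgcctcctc
Pfkp: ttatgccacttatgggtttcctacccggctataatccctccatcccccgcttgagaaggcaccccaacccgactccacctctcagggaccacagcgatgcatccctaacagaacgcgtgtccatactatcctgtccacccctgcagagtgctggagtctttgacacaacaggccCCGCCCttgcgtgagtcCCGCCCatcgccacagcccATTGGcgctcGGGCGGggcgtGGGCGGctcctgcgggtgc
Slc2a1 held 1 hypoxia response core and 2 GC boxes, Ldhb held 1 CCAAT box, and Pfkp held 4 GC boxes and 1 CCAAT box. Among 32851 promoter windows of the same length, 16.6% held the hypoxia response core, 32.7% a GC box and 33.8% a CCAAT box, so none of these matches is rare. The E-box (6.02% of windows), the AP-1 site (6.75%) and the cAMP response element (1.55%) did not match in these 3 windows. The hypoxia response core also matched in windows of Hk2, Pfkfb3, Pgk1 and Ldha, which did not change under both scalings, and not in those of Hk1. A match is a stretch of letters and not a measured binding site.

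Slc2a3 encodes GLUT3, the high-affinity transporter that T cells and neurons share. Its level was 13.7, 12.7, 14.8 and 14.9 TPM in the Rig1 KO libraries, against 11.6, 11.7, 12.9, 11.7 and 12.7 TPM in the WT libraries. The ranges met at 12.7 to 12.9 TPM, where Rig1 KO 2 and WT 3 and WT 5 lay. The log2 fold change of 0.19 passed narrowly (SE 0.070, adjusted p = 0.0421), but it was 0.08 after median ratio scaling (adjusted p = 0.231). It also missed the threshold without any of 6 single libraries, WT 1, WT 2, WT 4 and Rig1 KO 1, 3 and 4, with adjusted p up to 0.116, so no firm direction was established for Slc2a3.

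The pair of transporter genes therefore separated, and this comparison does not depend on how libraries were scaled. The log2 ratio of Slc2a1 to Slc2a3 TPM was -0.20 ± 0.24 in Rig1 KO (SD, n = 4) and 1.57 ± 0.12 in WT (SD, n = 5), a difference of -1.76, so that the ratio was 3.40-fold lower in Rig1 KO. An exact permutation test gave p = 0.0159 (two-sided), the smallest it can give with 4 and 5 libraries, and 0.0238 adjusted over the 3 pairs tested. Since Slc2a1 alone separated the groups and Slc2a3 differed little, this test adds no support beyond the Slc2a1 difference. Per exon length, Slc2a1 made up 41.7 ± 3.97% of the transcripts of both genes in Rig1 KO and 70.8 ± 1.70% in WT. The sum of both, on the same scale, was 88.2 ± 4.36 TPM in Rig1 KO and 156 ± 6.45 TPM in WT, so that the Rig1 KO sum was 56.4% of the WT sum.

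**Figure D2:**
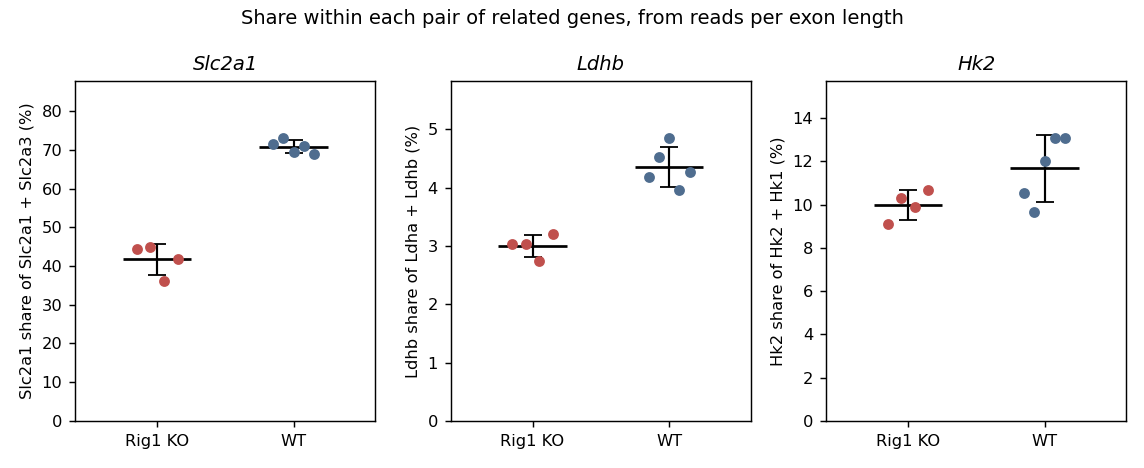
Share (%, vertical axis from 0) of Slc2a1, Ldhb and Hk2 within their pairs, from reads per exon length, in the 4 Rig1 KO libraries (left, red) and the 5 WT libraries (right, blue). Points are libraries, long bars means and whiskers 1 SD. The Slc2a1 share is 36.2 to 44.8% in Rig1 KO and 68.9 to 73.1% in WT, the Ldhb shares of the genotypes do not overlap, and the Hk2 shares do.

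Hexokinase traps glucose inside the cell, and its genes did not show a change that held. Hk1, the constitutive isozyme bound to mitochondria, was at 26.2, 25.1, 26.2 and 25.3 TPM in the Rig1 KO libraries, against 22.8, 21.0, 21.7, 24.0 and 23.5 TPM in the WT libraries. The groups did not overlap, yet the gap was small. Hk1 changed by 0.18 on the log2 scale (SE 0.057, adjusted p = 0.0261) with TPM as deposited and 0.06 (adjusted p = 0.372) after median ratio scaling. Without 1 of Rig1 KO 1, Rig1 KO 3, WT 2 or WT 3 it missed the threshold, with adjusted p up to 0.0622.

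Hk2, the isozyme induced by growth signals and in many tumours, was at 4.12, 4.53, 4.50 and 4.76 TPM in the Rig1 KO libraries, against 4.22, 3.52, 4.67, 5.69 and 5.57 TPM in the WT libraries. WT 4 and WT 5 were highest and WT 2 lowest, so the Rig1 KO values lay inside the WT range. The log2 fold change was -0.05 (95% interval -0.32 to 0.21, adjusted p = 0.746). WT 4 and WT 5 were also the libraries highest in summed B cell markers, at 512 and 1159 TPM. Those markers were at 470 TPM in WT 2 and 165 TPM in WT 3, the WT libraries with 3.52 and 4.67 TPM of Hk2. Without WT 4 and WT 5 the Hk2 estimate was 0.10 (adjusted p = 0.483). Neither Hk2 estimate passed, and a cause of the spread among WT libraries was not tested. The log2 ratio of Hk2 to Hk1 was -2.52 ± 0.11 in Rig1 KO (SD, n = 4) and -2.28 ± 0.22 in WT (SD, n = 5), a difference of -0.24 that did not pass (exact permutation p = 0.127, also after adjustment).

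Phosphofructokinase is the main control point of glycolysis. Pfkp, its platelet-type isozyme, which lymphocytes also make, was at 57.6, 54.1, 60.2 and 59.6 TPM in the Rig1 KO libraries, against 44.3, 45.3, 47.3, 44.7 and 41.3 TPM in the WT libraries. Every Rig1 KO library was above every WT library. The mean was 57.9 ± 2.74 TPM in Rig1 KO and 44.5 ± 2.16 TPM in WT, a 1.30-fold rise with a log2 fold change of 0.37 (SE 0.056, adjusted p = 0.000391). It remained 0.25 after median ratio scaling (adjusted p = 0.00425). Summed platelet markers were at 32.0 to 40.5 TPM in Rig1 KO and 183 to 246 TPM in WT, and their part in the Pfkp difference was not tested. In the annotation Pfkp overlaps Pitrm1 on the opposite strand, and the notes do not state whether strand was used in counting. Pitrm1 itself changed by 0.18 on the log2 scale (SE 0.078, adjusted p = 0.0859).

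Pfkfb3 makes the sugar bisphosphate that switches phosphofructokinase on. Its values were 8.58, 8.62, 9.17 and 8.84 TPM in the Rig1 KO libraries, against 7.26, 7.72, 7.74, 8.58 and 9.77 TPM in the WT libraries. The Rig1 KO libraries were tightly grouped (coefficient of variation 3.11%) inside a wider WT range (12.1%), of which WT 5 was the top. The log2 fold change was 0.10 (95% interval -0.09 to 0.28, adjusted p = 0.384), and its sign turned to -0.02 after median ratio scaling.

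Pgk1 catalyses the first step of glycolysis that yields ATP. Its values were 97.3, 94.7, 99.1 and 95.5 TPM in the Rig1 KO libraries, against 83.4, 82.2, 86.1, 91.7 and 84.4 TPM in the WT libraries, with WT 4 nearest to the Rig1 KO group. Pgk1 changed by 0.17 on the log2 scale (SE 0.048, adjusted p = 0.0126) with TPM as deposited, but 0.05 after median ratio scaling (adjusted p = 0.379). Pgk1 and Ldha have processed copies in the mouse genome, so a part of their reads could be assigned elsewhere.

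**Figure D3:**
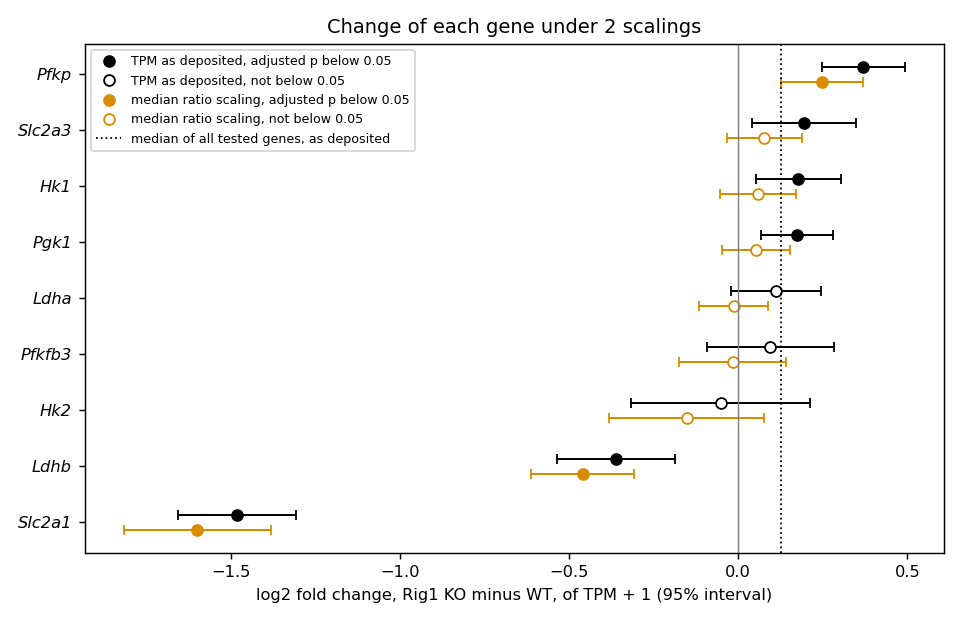
Log2 fold change of TPM + 1, Rig1 KO minus WT (horizontal axis), of each gene with its 95% interval, for TPM as deposited (black) and after median ratio scaling (orange). Filled points have an adjusted p below 0.05 and the dotted line is the median of all tested genes, 0.13. Slc2a1 (-1.48) and Ldhb (-0.36) lie to the left and Pfkp (0.37) to the right under both scalings, while Hk1, Pgk1 and Slc2a3 pass only as deposited.

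Lactate dehydrogenase is a tetramer of A and B subunits, of which A favours lactate production and B the reverse reaction. Ldha was at 297, 295, 317 and 321 TPM in the Rig1 KO libraries, against 287, 259, 281, 315 and 284 TPM in the WT libraries. WT 4 lay among the Rig1 KO values, and the log2 fold change of 0.11 did not pass (95% interval -0.02 to 0.24, adjusted p = 0.157). Ldhb was at 3.52, 3.50, 3.38 and 4.03 TPM in the Rig1 KO libraries, against 4.75, 4.65, 5.44, 4.93 and 4.81 TPM in the WT libraries. Every Rig1 KO library was below every WT library, from 77 to 100 recovered reads per Rig1 KO library and 119 to 145 per WT library.

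Ldhb averaged 3.61 ± 0.285 TPM in Rig1 KO (SD, n = 4) and 4.92 ± 0.313 TPM in WT (SD, n = 5). Ldhb thus changed by -0.36 on the log2 scale (SE 0.079, adjusted p = 0.00366), and by -0.46 after median ratio scaling (adjusted p = 0.000475). The log2 ratio of Ldha to Ldhb was 6.42 ± 0.10 in Rig1 KO and 5.86 ± 0.12 in WT, a difference of 0.56 (exact permutation p = 0.0159, 0.0238 adjusted over the 3 pairs, n = 4 and 5). This test is not independent of the Ldhb difference, which alone separated the groups. Per exon length Ldhb made up 3.001 ± 0.191% of both transcripts in Rig1 KO and 4.36 ± 0.341% in WT. The A subunit transcript thus made up nearly all of the pair in both genotypes.

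Levels of different genes can be compared only per length, and the deposited TPM rest on whole gene spans with introns. Recomputed per exon length, the order in Rig1 KO was Ldha (473 TPM), Pgk1 (257), Hk1 (120.2), Pfkp (107), Slc2a3 (51.3), Slc2a1 (36.9), Pfkfb3 (34.6), Ldhb (14.6) and Hk2 (13.3). In WT it was Ldha (449.5 TPM), Pgk1 (233), Slc2a1 (111), Hk1 (109), Pfkp (84.6), Slc2a3 (45.5), Pfkfb3 (33.1), Ldhb (20.4) and Hk2 (14.4). Slc2a1 thus stood beside Pfkfb3 in Rig1 KO and beside Hk1 in WT. Neighbours whose library ranges overlapped were Slc2a1 and Pfkfb3 and also Ldhb and Hk2 in Rig1 KO, and Slc2a1 and Hk1 in WT. The sources used here do not state whether reads in introns were counted, which limits these levels.

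By the root mean square difference of centred log2(TPM + 1) values over the 9 libraries, the 3 tested genes nearest to Slc2a1 were Kcnh6 (0.086), Nfkbia (0.099) and Pnrc1 (0.116). Kcnh6, a voltage-gated potassium channel gene, averaged 40.4 ± 3.31 TPM in Rig1 KO and 115 ± 5.56 TPM in WT. Nfkbia, which encodes the NF-κB inhibitor IκBα, averaged 311 ± 20.6 TPM in Rig1 KO and 829 ± 30.2 TPM in WT. Pnrc1, a nuclear receptor coactivator gene, averaged 40.2 ± 0.905 TPM in Rig1 KO and 120.4 ± 5.23 TPM in WT. The distance is set mostly by the step between genotypes, and likeness of pattern says nothing of shared control.

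The other genes of glucose metabolism were read from 9 lists of enzymes, carriers and regulators. Of 109 tested genes in them, 29 rose and 8 fell, with a median log2 fold change of 0.09 against 0.13 over all tested genes. After median ratio scaling 22 rose and 19 fell, with a median of -0.02. Both shares as deposited are below the background of 33.5% higher and 12.2% lower, so the count of calls over all lists is no result about them.

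Of 16 tested glycolytic enzymes beyond the members, Eno1, Eno3 and Pklr rose, none fell and 13 did not pass (median 0.06). After median ratio scaling Pklr was higher and Gapdh, Pkm and Pgam2 were lower (median -0.06). Over all tested genes 33.5% rose and 12.2% fell as deposited, and 23.7% rose and 21.4% fell after that scaling. No common direction held for this list, and its counts are not read as a result about it. Gapdh, the enzyme that oxidises the split sugar, averaged 1026 ± 67.9 TPM in Rig1 KO and 1067 ± 80.9 TPM in WT, with a log2 fold change of -0.06 (adjusted p = 0.533) that became -0.18 and passed after median ratio scaling (adjusted p = 0.034). Pklr, the liver and red cell pyruvate kinase, was low at 3.70 ± 0.781 TPM in Rig1 KO and 1.496 ± 1.05 TPM in WT (log2 fold change 1.01, adjusted p = 0.0164). Summed erythroid markers (8 of 9 found, 3 higher) overlapped, at 183 to 326 TPM in Rig1 KO and 75.1 to 205 TPM in WT. Their part in the Pklr difference was not tested. The enolase genes Eno1 (0.19) and Eno3 (0.25) did not pass after median ratio scaling (adjusted p = 0.318 and 0.294).

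Among 3 tested genes that make or degrade the activator of phosphofructokinase, Tigar, a phosphatase that removes it, was the one that passed, at 11.7 ± 0.860 TPM in Rig1 KO and 8.49 ± 0.605 TPM in WT (log2 fold change 0.41, adjusted p = 0.0013). Of 6 tested sugar and lactate carriers, Bsg alone passed. Over all tested genes 45.7% passed, and with lists of 3 and 6 genes these counts are not read as a result about them. Bsg encodes basigin, the chaperone that brings lactate carriers to the membrane, and averaged 172 ± 8.21 TPM in Rig1 KO and 126 ± 4.26 TPM in WT (log2 fold change 0.44, adjusted p = 5.52e-05). The lactate carrier gene Slc16a1 did not pass, with a log2 fold change of -0.09 (adjusted p = 0.496).

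Entry of pyruvate into mitochondria gave 1 rise and 2 falls among 13 tested genes, and 1 rise and 3 falls after median ratio scaling, which added the pyruvate dehydrogenase subunit gene Pdha1 (-0.25). Mpc2, a subunit of the mitochondrial pyruvate carrier, fell to 7.57 ± 0.820 TPM in Rig1 KO, against 12.2 ± 1.46 TPM in WT (log2 fold change -0.62, adjusted p = 0.000642), while its partner Mpc1 had a log2 fold change of 0.21 (adjusted p = 0.0818). Pdhx, a structural component of pyruvate dehydrogenase, fell by 0.31 on the log2 scale and Pdpr, a regulator of the phosphatase of that enzyme, rose by 0.49. In the pentose phosphate pathway, which branches off at glucose phosphate, Rpe, H6pd and Rpia rose among 7 tested genes, of which Rpia (0.26) did not pass after median ratio scaling (adjusted p = 0.0703).

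**Figure D4:**
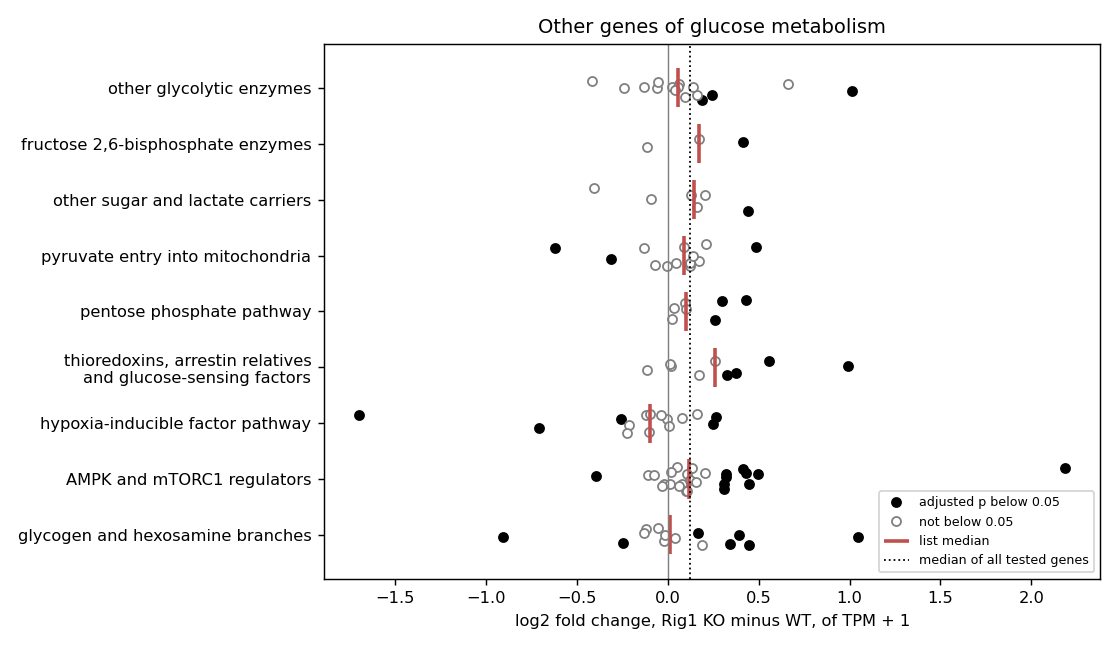
Log2 fold change of TPM + 1, Rig1 KO minus WT (horizontal axis), of 109 tested genes in 9 lists (rows). Filled points have an adjusted p below 0.05, red bars are list medians and the dotted line is the median of all tested genes, 0.13. The points farthest out are Ddit4 (2.19) on the right and Vegfa (-1.70) on the left.

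Arrestin relatives, thioredoxins and glucose-sensing transcription factors gave 4 rises and no fall among 9 tested genes, and the same counts of 4 and 0 after median ratio scaling. Over all tested genes 33.5% rose and 12.2% fell as deposited, and 23.7% rose and 21.4% fell after that scaling. With 9 genes, the counts are not read as a result about this list. Arrdc4, an arrestin relative known to lower glucose uptake, was at 15.1, 14.3, 12.3 and 14.2 TPM in the Rig1 KO libraries, against 5.46, 7.22, 6.52, 6.62 and 6.89 TPM in the WT libraries. The groups lay well apart, with a log2 fold change of 0.99 (adjusted p = 1.12e-05). Arrdc2 rose by 0.56 and Arrdc1 by 0.32. Mlx, the partner of the glucose-sensing factor MondoA, rose by 0.38 to 141 ± 14.4 TPM in Rig1 KO, against 108 ± 3.23 TPM in WT.

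In the hypoxia-inducible factor pathway, whose factors are known to drive Slc2a1, Pgk1 and Ldha, 2 of 15 tested genes rose and 3 fell. After median ratio scaling none rose and 6 fell, where 23.7% of all tested genes rose and 21.4% fell. As deposited the shares of all genes were 33.5% and 12.2%, and nothing particular to this list is read from its counts. Vegfa, the angiogenic growth factor, fell to 0.708 ± 0.182 TPM in Rig1 KO, against 4.78 ± 2.15 TPM in WT, where WT 5 was highest at 8.33 TPM (log2 fold change -1.70, adjusted p = 0.00016). Higd1a, a small mitochondrial protein induced by low oxygen, fell to 12.4 ± 1.599 TPM in Rig1 KO, against 20.8 ± 0.624 TPM in WT (log2 fold change -0.71, adjusted p = 6.79e-05). Vhl, which marks the factors for degradation, fell by 0.26. The rises were Hif1an (0.26) and Ero1a (0.25), both lost after median ratio scaling. Hif1a itself was not analysed here.

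Regulators of AMPK and mTORC1, the kinases that sense energy and nutrients, gave 9 rises and 1 fall among 26 tested genes, and 8 rises and 2 falls after median ratio scaling. The share that rose as deposited was near the 33.5% of all tested genes, of which 12.2% fell. After median ratio scaling 23.7% of all tested genes rose and 21.4% fell. The counts are not read as a result about the list. Ddit4, which encodes REDD1, an inhibitor of mTORC1, was at 931, 1211, 845 and 716 TPM in the Rig1 KO libraries, against 179.8, 180.5, 201, 187 and 256 TPM in the WT libraries. The lowest Rig1 KO library was far above WT 5, the highest WT library. Its log2 fold change was 2.19 (SE 0.148, adjusted p = 1.57e-06), a 4.61-fold rise and the largest among the 109 genes. Depdc5, part of a complex that restrains mTORC1, rose by 0.43 and Rps6kb1, a kinase that mTORC1 activates, by 0.31. The fall was in Sesn2, a stress-induced inhibitor of mTORC1 (-0.39, adjusted p = 0.00895).

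The glycogen and hexosamine branches gave 5 rises and 2 falls among 14 tested genes (median 0.01), where 33.5% of all tested genes rose and 12.2% fell. After median ratio scaling there were 4 rises and 5 falls (median -0.08), where 23.7% of all tested genes rose and 21.4% fell. The counts are not read as a result about this list. Ogt, which attaches the sugar made by the hexosamine branch to proteins, averaged 274 ± 48.0 TPM in Rig1 KO and 131 ± 4.37 TPM in WT (log2 fold change 1.05, adjusted p = 1.95e-05), whereas Oga, which removes it, did not pass (-0.13, adjusted p = 0.266), though it did after median ratio scaling (-0.25, adjusted p = 0.0158). Pygm, the muscle glycogen phosphorylase, fell to 7.08 ± 0.685 TPM in Rig1 KO, against 14.4 ± 3.59 TPM in WT, with WT 1 and WT 3 highest. The glycogen synthase gene Gys1 (0.44), the hexosamine branch's entry enzyme Gfpt1 (0.34) and the phosphorylase gene Pygb (0.17) also rose, of which Pygb did not pass after median ratio scaling (adjusted p = 0.365). Pgm1, which links glycogen to glycolysis, fell by 0.25.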

How the data were processed

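Poly(A) RNA was sequenced in 9 libraries, grouped by sample title. The deposited values are TPM, 1 column per library per the file headers. The submitters' processing notes name fastp, featureCounts and the build mm39 (GRCm39). The sources used here do not state the aligner, annotation release, tool versions, strand setting or gene lengths.

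Whole reads were recovered from the ratios of TPM between libraries (relative tolerance 2e-12) for 100% of genes, up to a common divisor. The implied gene lengths lay within 1% of the GENCODE gene span, introns included, for 96.6% of 17486 genes. Exon-length TPM divide these reads by the union of GENCODE M21 exons.

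Genes reaching 1 TPM in 4 or more libraries entered the test, a limma fit (limma 3.58.1, R 4.3.3) of log2(TPM + 1) values (mean-variance trend, no covariate, two-sided, Benjamini-Hochberg over all tested genes, threshold 0.05). A fold change on this scale understates that of low genes. The fit was tested on simulated data. Ratios were compared with exact permutation tests in scipy 1.17.1.

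Named were all members, the 3 genes of each list with the smallest p, the genes behind counts up to 5, and the 3 genes nearest in pattern to the member with the largest change. Gapdh, Slc16a1, Mpc1, Oga and Pitrm1 were chosen after their values were seen. In the glycogen and hexosamine list 1 gene that the rule names is not reported here. The members and lists were chosen with earlier results of these data known. In the lists, 2 of the symbols were found through synonyms.

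The alternatives were pseudocounts of 0.1 and 0.5, no filter, a filter keeping genes averaging 5 TPM or more, median ratio scaling, quantile scaling, exon lengths, limma's voom on recovered reads, the mean of B cell markers as covariate, libraries left out and the replicate number as a block. Replicate numbers did not pair the samples.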

Additional observations from a re-analysis of the deposited data

How the results depend on the processing

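The calls of Slc2a1 (log2 fold change -1.69 to -1.40) and Pfkp (0.24 to 0.40) held under all 20 alternatives of the fit, and that of Ldhb (-0.58 to -0.33) under the 19 that tested it, since a mean TPM of at least 5 left out Ldhb and Hk2 and so 1 member lower. Median ratio scaling, quantile scaling, voom on recovered reads and the B cell marker covariate each called 3 members, 1 of them higher. Leaving out 1 library gave 4 to 6 calls of members, 2 to 4 higher and 2 lower. Among members that did not pass, Hk2 turned to 0.10 with the covariate and 0.10 without WT 4 and WT 5 (0.0012 with the replicate block, -0.13 to 0.0074 with 1 library left out). Pfkfb3 turned to -0.016 with median ratio scaling, -0.056 with quantile scaling and -0.029 with voom, and Ldha to -0.013 with median ratio scaling and -0.027 with voom. The cause of these changes beyond the scaling itself was not tested.

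Of all genes, 2260 were lower with median ratio scaling, 2193 with quantile scaling and 2494 with voom, against 1291 as deposited, and with the covariate 2874 changed (2264 higher, 610 lower) against 4817. The pathway lists had 19, 18 and 21 lower under those 3 scalings, against 8 as deposited, and 22 calls (17 higher, 5 lower) with the covariate. Without 1 library 5 to 9 list genes were lower, the fewest without Rig1 KO 1.

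Without WT 4 and WT 5 the ratio differences were 0.61 for Ldha to Ldhb and -1.80 for Slc2a1 to Slc2a3 (adjusted p = 0.0857 each by the exact permutation test, which cannot go below 0.0571 unadjusted). Leaving out 1 library gave 0.51 to 0.59 and -1.82 to -1.65, and with 3 Rig1 KO libraries the adjusted p of both was 0.0536 by the exact test, which cannot go below 0.0357 unadjusted.

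Samples with the same replicate number deviated together with correlations of -0.10 to 0.10, and 1 of 4 Rig1 KO libraries correlated best with its own number. With the replicate block 4777 genes and 6 members were called, and the ratio differences were 0.56 and -1.80 (adjusted p = 0.188 each by an exact sign-flip test, which cannot go below 0.125 for 4 pairs). For Ldhb, 77 to 145 reads per library limit the precision.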
